A study of Mus musculus with 3 samples.

Results

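The 9 genes described here encode nuclear receptors of the COUP-TF group (Nr2f1, Nr2f2 and Nr2f6), the Tailless receptor (Nr2e1), the Nr4a group (Nr4a1, Nr4a2 and Nr4a3) and the Ror group (Rora and Rorb). They were chosen by name, with earlier results of these data known, so the shares below describe these 9 genes only. Every peak that the authors labelled with 1 of these 9 symbols was taken from their list of Sp9 peaks. A gene without such a peak was counted as having none. Of 19979 peaks in the list, 26 carried the name of a member, and these belonged to 8 of the 9 genes. The list uses 13383 gene names in all.

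The study is on the zinc finger factors Sp8 and Sp9 in the making of olfactory bulb interneurons, and chromatin was immunoprecipitated with a homemade antibody against Sp9. The source was whole olfactory bulb of CD1 mice aged postnatal day 0 to 2, and the labels give no transgene, mutation or treatment for any sample. There were 2 immunoprecipitation libraries and 1 input library made without antibody. The peak list is named as shared and holds 1 score per peak. How that score draws on the 2 immunoprecipitations is not given. No value thus has a replicate error, no test between groups could be made, and the depth of each library is unknown. Whole bulb holds many cell types, so strong binding in few cells and weak binding in many cannot be told apart. The labelled tissue could not be checked on marker genes, because a peak list holds no expression values.

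Nuclear receptors are transcription factors with a zinc finger DNA-binding domain and a ligand-binding domain. Those described here were mostly found as orphans, without a known hormone. COUP-TF proteins often act as repressors and pattern the forebrain and its interneurons, and Tailless keeps neural stem cells dividing. Nr4a genes are switched on rapidly by neuronal activity, and Nr4a2 serves dopamine neurons. Ror proteins drive clock genes and the maturation of particular neurons. In the olfactory bulb, Nr2f1 and Nr4a2 are known for their part in the dopaminergic periglomerular neurons.

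Sp9 peaks were linked to nearly all of these receptor genes, and mostly several to a gene. Linked means only that the authors gave the peak this gene's name, and it does not place the peak at the promoter. The share with at least 1 linked peak was 88.9% (8 of 9), against 55.4% of 21900 protein-coding genes. A peak at or above the list's median score of 210.06 was linked to the same 8 genes, against 35.4% of protein-coding genes. Of the 12136 protein-coding genes with a peak, 7763 had one that high, and a gene with more peaks has more chances of one. The score is the authors' own, with a formula not given in the sources used here, and is used only to rank peaks within the list. A peak at or above the upper quartile (353.555) was linked to 4 members (Nr2f1, Nr2f2, Nr2f6 and Nr4a2), against 19.2% of protein-coding genes.

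Most of the receptor genes had several peaks each. Of the 9 genes, 7 had 3 or more linked peaks (77.8%), against 5.62% of all protein-coding genes and 10.1% of those with at least 1 peak. The mean was 2.89 peaks per member and 0.819 per protein-coding gene. The nearest peaks of other names lay further apart than the median of protein-coding genes with a peak (182 kb) for 5 of the 8 members with a peak. Among protein-coding genes with a peak and with flanking peaks of other names at least 51.4 kb apart, 10.7% had 3 or more peaks. That distance was the smallest of the 7 members. Peaks close together also count separately: joining peaks of 1 name with a gap of 5000 bp or less left 3 members (Nr2f2, Nr4a1 and Nr4a2) with 3 or more, against 3.79% of protein-coding genes.

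**Figure D1:**
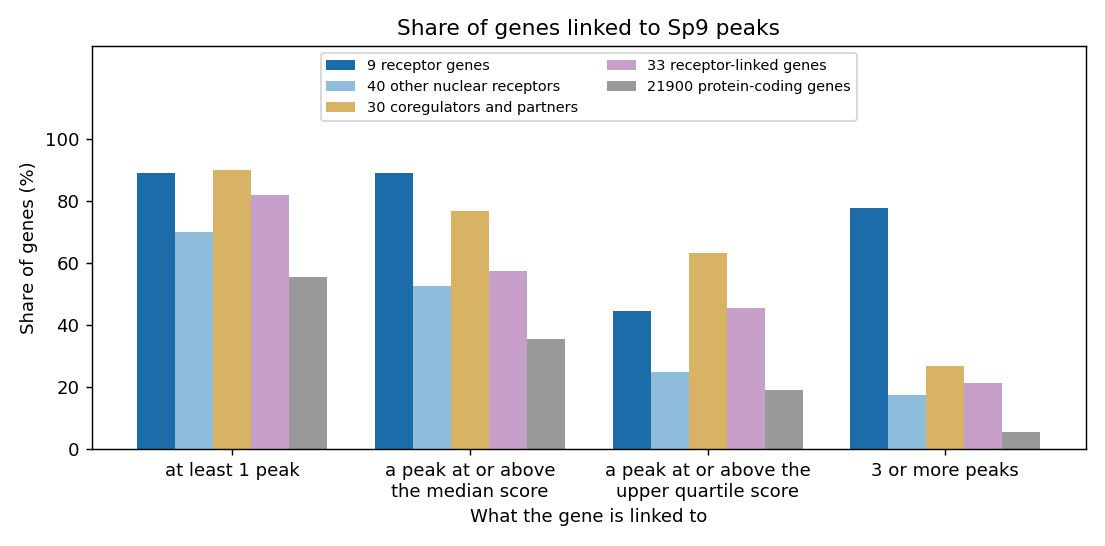
Share of genes (%) linked to at least 1 peak, to a peak at or above the median score, to a peak at or above the upper quartile score, and to 3 or more peaks. Bars stand for the 9 receptor genes, 3 lists of related genes and all 21900 protein-coding genes, and for 3 or more peaks the bar of the receptor genes reaches 77.8% and that of all genes 5.62%.

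Sp factors bind GC boxes, and the start-site sequences of the members differ widely in them. The sequences below, from RefSeq on build GRCm38.p6, are the 250 bases before the outermost listed start site of 5 genes, with each GC box (GGGCGG or its complement CCGCCC, overlaps counted) in capitals. They show the member with the highest score (Nr2f6), the member with the most peaks (Nr4a2) and an immediate early gene (Nr4a1). Also shown are Nr2f2, with a strong peak and no GC box in this stretch, and Rorb, the gene without a peak. The peaks are on build mm9, so whether a peak covers any of these stretches was not analysed here.
Nr2f6: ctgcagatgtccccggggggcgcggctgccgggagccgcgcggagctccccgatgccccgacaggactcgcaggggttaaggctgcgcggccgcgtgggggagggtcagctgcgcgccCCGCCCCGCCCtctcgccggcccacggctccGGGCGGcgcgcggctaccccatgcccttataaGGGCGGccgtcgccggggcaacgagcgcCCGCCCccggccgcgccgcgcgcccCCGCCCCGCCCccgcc
Nr4a2: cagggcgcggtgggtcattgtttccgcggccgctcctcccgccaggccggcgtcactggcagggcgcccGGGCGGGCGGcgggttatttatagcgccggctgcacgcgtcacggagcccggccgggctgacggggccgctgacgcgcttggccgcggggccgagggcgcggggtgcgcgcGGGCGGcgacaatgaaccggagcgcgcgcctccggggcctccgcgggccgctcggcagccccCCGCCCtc
Nr4a1: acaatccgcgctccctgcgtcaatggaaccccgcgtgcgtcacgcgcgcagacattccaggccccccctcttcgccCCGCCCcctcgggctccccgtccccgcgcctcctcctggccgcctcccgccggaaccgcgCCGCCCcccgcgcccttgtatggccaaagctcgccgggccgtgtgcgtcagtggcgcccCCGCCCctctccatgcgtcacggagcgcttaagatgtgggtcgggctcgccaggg
Nr2f2: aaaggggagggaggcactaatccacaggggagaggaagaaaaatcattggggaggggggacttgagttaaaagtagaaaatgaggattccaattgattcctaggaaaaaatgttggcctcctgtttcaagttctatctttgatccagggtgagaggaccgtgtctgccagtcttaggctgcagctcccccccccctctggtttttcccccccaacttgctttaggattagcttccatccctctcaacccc
Rorb: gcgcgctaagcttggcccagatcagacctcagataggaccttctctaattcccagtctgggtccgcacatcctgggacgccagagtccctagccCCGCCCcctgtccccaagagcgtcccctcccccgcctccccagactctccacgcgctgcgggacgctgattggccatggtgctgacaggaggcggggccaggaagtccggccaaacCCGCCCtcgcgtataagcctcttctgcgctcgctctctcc

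These stretches lie at chr8:71381953-71382202 (Nr2f6, minus strand), chr2:57124004-57124253 (Nr4a2, minus strand), chr15:101266596-101266845 (Nr4a1, plus strand), chr7:70366747-70366996 (Nr2f2, minus strand) and chr19:19111197-19111446 (Rorb, minus strand). RefSeq gave 11 windows for the 9 genes, each of 300 bases with 50 after the start. At least 1 GC box stood in a window of 6 genes, against 49.2% of protein-coding genes with a window, and 35.7% of all 32851 windows held one. Nr2f6 had 7, Nr4a2 had 5, Nr4a1 had 3, Rorb had 2, and Nr2f1 and Nr4a3 had 1 each, while the windows of Nr2f2, Nr2e1 and Rora held none. The longer letters GGGGCGGGG, on either strand and containing the shorter ones, stood in windows of 3 genes (Nr2f6, Nr4a1 and Rorb, 33.3%), against 17.3% of protein-coding genes with a window and 11.4% of all windows. Nr2f6 and Nr4a2, with the most boxes, also had the 2 highest scores among the members (642.84 and 589.02), whereas Nr2f2, without a box in its window, had a peak above 84.8% of the list, and Rorb, with 2, had no peak. A match of letters is a description and not a binding site.

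The COUP-TF genes each had 1 strong and wide peak. Nr2f6, also called Ear2, had a single peak with the highest score of any member, 642.84, on chromosome 8 from 73904081 to 73906517, which lay above 94.1% of all peaks. Nr2f2 (COUP-TFII), a factor of caudally born interneurons and of veins, scored 455.43 at its highest peak, on chromosome 7 from 77504399 to 77507238. Nr2f1 (COUP-TFI), which patterns cortical areas, had its highest peak at 374.63 on chromosome 13 from 78337289 to 78339267. These 3 peaks were the highest and the widest of their genes, with widths of 2436, 2839 and 1978 bp against a list median of 986 bp.

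Width usually follows score in this list, so each was also set against the peaks whose score was within 10% of its own. The Nr2f2 peak was wider than 99.7% of 1396 such peaks, whose median was 1331.5 bp. The Nr2f1 peak was wider than 97.3% of its like, and the Nr2f6 peak wider than 94.9%. All 3 were thus broad for their score as well as in absolute terms.

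The other peaks of Nr2f1 and Nr2f2 were lower, and 1 of each lay far away. Nr2f1 had a second peak of score 202.21 at a gap of 2.63 kb from the first and another of 142.82 at a gap of 212 kb. That distant peak was 483 bp wide, wider than only 1.13% of the list. Nr2f2 had a second peak of 183.14 at a gap of 6.92 kb and another of 219.4 at a gap of 314 kb. No peak of another name lay inside either stretch, and the next peak beyond Nr2f1 was 1608 kb further, named for Arrdc3, so the distant peaks stand in stretches with few peaks. Beyond Nr2f2, the next was 588 kb on and named 4930441H08Rik.

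On their other side, both COUP-TF genes with several peaks adjoined peaks named for a long non-coding RNA. Beside Nr2f1, 4 peaks carried the name A830082K12Rik, the neighbouring gene in RefSeq order, with scores of 474.47, 473.66, 150.39 and 348.24. The nearest was 2.29 kb from the first Nr2f1 peak, and the top 2 of these 4 exceeded every peak named Nr2f1. Counting only the receptor's own name therefore leaves the highest peak of that neighbourhood to the non-coding gene. Beside Nr2f2, the peaks named Gm29683 were weaker, at 110.03 and 127.46 within 50 kb and 293.57 further off. Nr2f6 lies among closely spaced genes, and its peak stood 3.44 kb from the nearer of 2 Ocel1 peaks (306.83 and 220.81) and 23.2 kb from an Ankle1 peak (271.83).

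Nr2e1, the Tailless receptor of neural stem cells, had a close group of moderate peaks. In order along chromosome 10 the scores were 214.14, 121.44, 258.11 and 289.71, all between 42299089 and 42311974. They fell within 12.9 kb, 3 of the 4 were above the list's median, and none reached the upper quartile. Widths ran from 797 to 1045 bp, and each was wider than 31.6% to 51.3% of the peaks of like score. The stretch was well separated from other names, with the nearest peaks 76.4 kb away (Snx3, score 764.14) and 86.4 kb away (Ostm1, score 255.47).

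**Figure D2:**
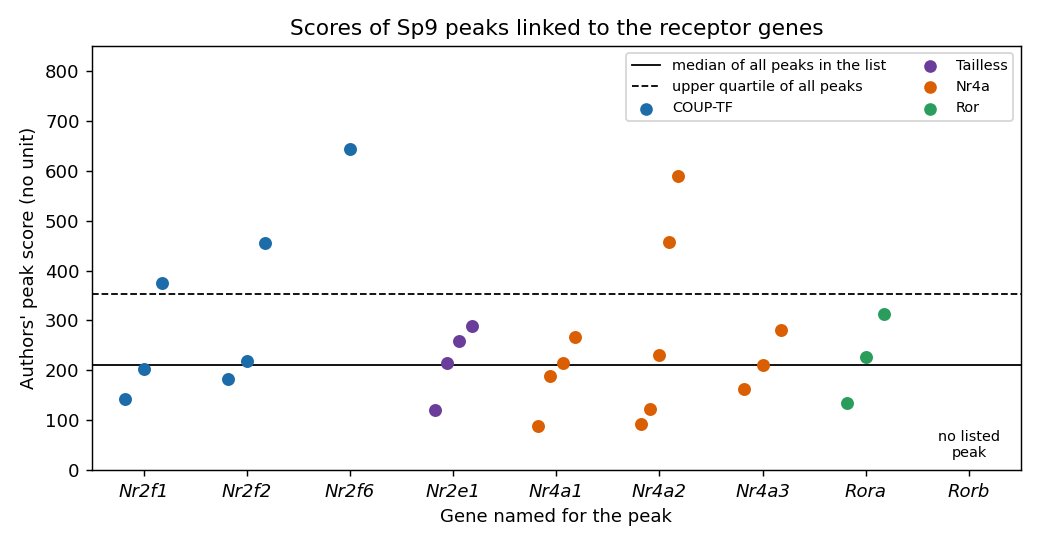
Authors' peak score (no unit) of each of the 26 linked peaks, by gene, with the list's median (solid line) and upper quartile (dashed line). Only peaks of Nr2f1, Nr2f2, Nr2f6 and Nr4a2 lie above the dashed line, and Rorb has no listed peak.

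The Nr4a genes held 12 of the 26 peaks, all in tight groups. Nr4a2 (Nurr1), the factor required by midbrain dopamine neurons, had the most of any member, 5, against 1.28% of protein-coding genes with 5 or more. Joined at gaps of 5000 bp or less they made 3, as many as those of Nr2f2 and Nr4a1. Their scores along chromosome 2, from 56954693 to 56976915, were 92.27, 230.58, 457.59, 122.09 and 589.02. The highest lay above 92.3% of the list and was 6.38 times the lowest. Strong and weak peaks thus lay together within 22.2 kb.

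The 2 strong peaks of Nr4a2 were narrow for their score, unlike those of the COUP-TF genes. The peak of 589.02 was 1097 bp wide, and 9.96% of 914 peaks of like score, with a median of 1500 bp, were narrower. The peak of 457.59 was 982 bp wide, and 8.87% of 1386 such peaks were narrower. Nr2f2 had a peak of almost the same score as the latter (455.43) that was 2839 bp wide. No replicate value exists for a width, and the difference was not tested.

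**Figure D3:**
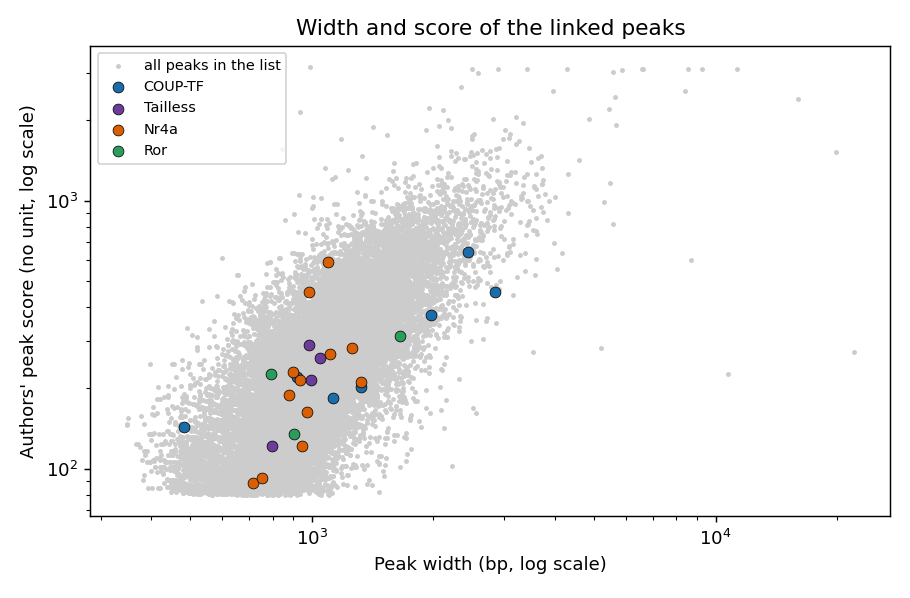
Peak width (bp) against the authors' peak score (no unit), both on log scales, for all 19979 peaks (grey) and the 26 linked peaks, coloured by receptor group. The highest peaks of the 3 COUP-TF genes lie at the wide side of the cloud and the 2 highest Nr4a2 peaks at its narrow side.

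Nr4a1 (Nur77) and Nr4a3 (Nor1), immediate early genes of neurons and of many other cells, had weaker peaks. Nr4a1 had scores of 267.81, 214.64, 188.1 and 88.74 along chromosome 15 from 101076350 to 101101260. Nr4a3 had scores of 163.11, 210.06 and 281.39 along chromosome 4 from 48055543 to 48065409. The ranges of these 2 genes overlapped, none of their 7 peaks reached the upper quartile, and the middle Nr4a3 peak equalled the list's median exactly. Around Nr4a1, peaks of other names stood at 12.9 kb (Atg101, 273.27), 13.6 kb (A330009N23Rik, 238.71) and 20.8 kb (Grasp, 272.05), and 2 of these 3 scored above its own highest peak. Nr4a3 stood further apart, with 72.1 kb to a Stx17 peak and 523 kb to the nearest peak on the other side, named Sec61b.

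By the number of peaks and their summed score (1491.55), the protein-coding genes most like Nr4a2 among 128 others with 5 peaks were Gata2, a zinc finger factor of blood and of neurons (1504.18), Nbea, a neuronal trafficking protein (1458.46), and Bbc3, a mediator of apoptosis (1456.86). The likeness is within this 1 list and uses no position.

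The Ror genes differed, with peaks at Rora and none at Rorb. Rora, lost in the staggerer mouse and needed by Purkinje cells, had peaks of 226.42 and 135.32 on chromosome 9 from 68501141 to 68503193, separated by 0.352 kb. Its highest, of score 313.02, lay 634 kb away, from 69137223 to 69138880, and was 1657 bp wide, more than 94.96% of peaks of like score. No peak of another name lay between. The 3 peaks spanned 638 kb, the widest spread of any member.

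Rorb, a factor of middle cortical layers and of retina, had no listed peak, and the region it occupies was empty of any. In RefSeq gene order it falls between D030056L22Rik, with a peak of 547.57 ending at 18788365 on chromosome 19, and E030003E18Rik, with a peak of 126.84 starting at 20594788. The distance between these peaks was 1806 kb, with 0 peaks and 16 RefSeq genes inside it. Only 24 of 19859 distances between successive peaks were longer, and their median was 58.2 kb. The absence is thus of the whole neighbourhood and not of Rorb alone. The depth is unknown, so weaker binding below the authors' cut-off cannot be judged.

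**Figure D4:**
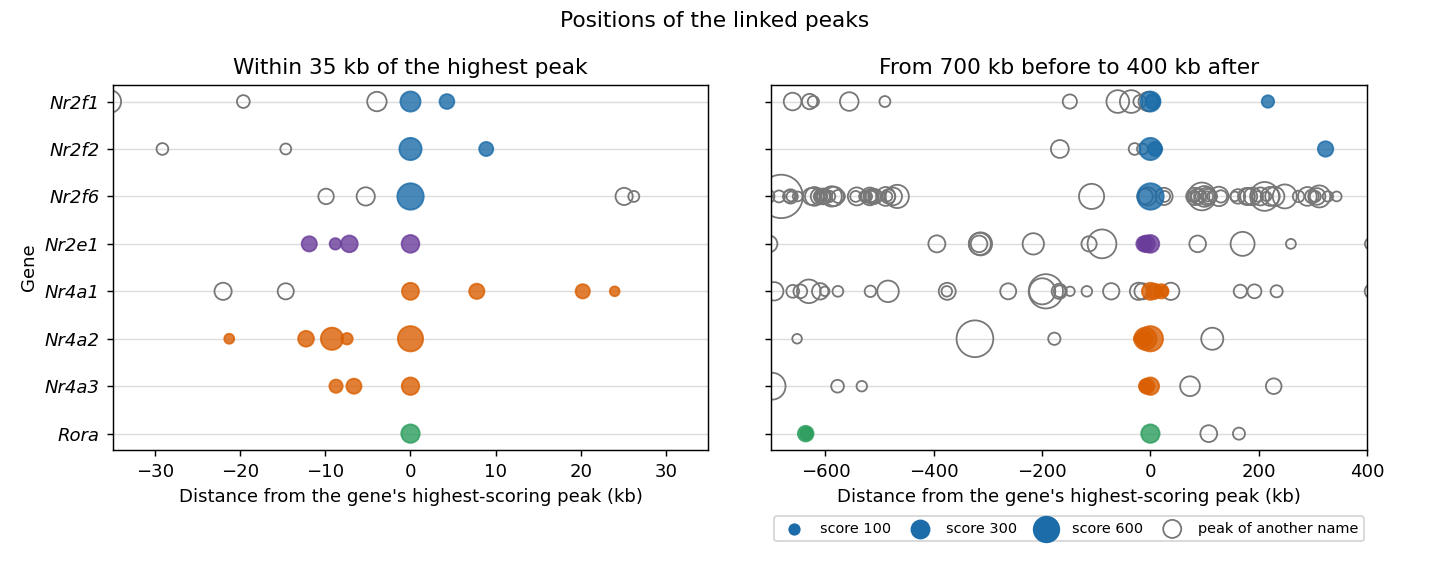
Positions of the linked peaks (filled) and of peaks with another name (open) as distance in kb from each gene's highest-scoring peak, with circle area proportional to the authors' peak score. Peaks of Nr2e1 and the Nr4a genes lie within 25 kb of the highest, while Nr2f1, Nr2f2 and Rora have peaks more than 200 kb away.

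Spacing thus fell into close groups with 3 long exceptions. Of the 18 gaps between successive peaks of 1 member, 14 were under 10 kb (77.8%), against 35.9% of 6527 such gaps in the whole list. The median gap was 5.76 kb for the members and 24.6 kb for the list. The 3 gaps over 200 kb, in Nr2f1, Nr2f2 and Rora, made 16.7% of the members' gaps, against 11.9% in the list.

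Scores of the 26 peaks were not high as a group. They ran from 88.74 to 642.84 with a median of 217.02, close to the list's 210.06. Above or at the median were 16 peaks (61.5%), and at or above the upper quartile 5 (19.2%). The median score by group was 219.4 for COUP-TF, 236 for Nr2e1, 212 for Nr4a and 226.42 for Rora, and the ranges of the 4 groups overlapped.

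Other nuclear receptors had smaller shares than the 9 members. Of 40 others, 28 had a linked peak (70%), 21 one at or above the median score (52.5%), and 7 had 3 or more (17.5%). These shares compare with 55.4%, 35.4% and 5.62% of protein-coding genes, and the differences were not tested. A peak at or above the upper quartile score was linked to only 10 of the 40, against 19.2% of protein-coding genes. High scores belonged to the retinoid partner Rxrb (779.82), the clock repressor Nr1d2 (748.19), the orphan receptor Nr2c2 (700.02), the glucocorticoid receptor Nr3c1 (549.82), the thyroid hormone receptor Thrb (525.48), Nr5a1 (454.51) and Nr5a2 (425.72). Rxrb, Nr1d2 and Nr2c2 thus scored above every member. Among those without a linked peak were Nr0b2, Nr1h3, Nr1h4, Nr1h5, Nr1i2, Nr1i3, Nr2e3, Esr2, Rxrg, Vdr and Hnf4a. The retinoic acid receptors Rara, Rarb and Rarg had 4, 5 and 2 peaks with highest scores of 300.92, 178.54 and 139.19.

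Coregulators and partners of these receptors were linked about as often as the members. Of 30 genes, 27 had a linked peak (90%), 23 one at or above the median (76.7%), and 8 had 3 or more (26.7%). Among protein-coding genes these shares were 55.4%, 35.4% and 5.62%, and the differences were not tested. Bcl11b, a partner protein of COUP-TF, led with 1090.42 and 6 peaks, followed by the coactivators Ncoa2 (1069.46) and Ppargc1b (1006.29), the corepressors Rcor1 (970.2) and Rcor2 (930.7) of the Kdm1a complex, Sin3a (765.27), the deacetylase Hdac2 (626.66) and the coactivator Ncoa3 (619.26). Of the 8 genes of this list with 3 or more peaks, Bcl11b was the only one among its 8 highest scores. Atrophin 1 (Atn1), the corepressor of Tailless, had 1 peak of 179.67. Ncoa6, Hdac3 and Hdac5 had none.

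Of 33 genes that act downstream of or with these receptors, 27 had a linked peak (81.8%) and 19 one at or above the median (57.6%). There were 7 with 3 or more (21.2%). The shares of protein-coding genes were 55.4%, 35.4% and 5.62%, and the differences were not tested. The highest scores were those of Clock (808.47), Nr1d2 (748.19), Cry1 (685.74), the receptor kinase Ret (657.1), the calcium channel gene Itpr1 (610.76), Sox2 (583.79), the clock-controlled repressor Nfil3 (561.49) and Arntl, the classic target of Ror proteins (528.06). Nr1d2 and Nr1d1 stand in 2 of the lists. Of the other clock genes, Npas2 (458.8), Cry2 (430.07) and Per2 (423.55) still had a peak above the list's upper quartile. Bhlhe40 (198.47), Dbp (150.58) and Nr1d1 (109.28) stayed below its median, and Per1 had no linked peak. Of the genes of dopamine neurons, Th, Ddc and Slc6a3 had none, while Pitx3 (194.31) and the vesicular transporter gene Slc18a2 (127.3) had 1 peak each and Ret had 2. Pcp2 and Nrp1 had none.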

How the data were processed

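Chromatin from neonatal mouse olfactory bulb was immunoprecipitated with an antibody against Sp9 in 2 libraries, with 1 input library. The only file analysed is the list of shared peaks, which gives chromosome, start, end, 1 score and 1 gene name per peak. The deposited peak score is the authors' value, with a formula not given in the sources used here, and the deposited positions are printed as listed (whether starts count from 0 or 1 is not stated). Bowtie2 2.2.4, MACS 1.4.2 and build mm9 are named per the submitters' processing notes, without roles or settings. How peaks were judged shared, and which annotation named them, is likewise not given there. The depth of each library is unknown.

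Peaks were taken by exact gene name with Python 3.11.15 and pandas 2.3.3. For the background, names were matched to the RefSeq gene table of GRCm38.p6 by symbol (12806 of 13383 names) or by a synonym of 1 gene (527), and 50 did not match. Only names, gene classes and neighbour order were taken from that table. Start-site sequences came from the RefSeq promoter table of the same build, which matched all 9 members. The counting, flanking and letter searches were tested on simulated data. No test was run, since the list holds no value per library. Named genes are the 9 members, the 8 highest and all unlinked genes of each of 3 lists, the names beside each member's peaks and the 3 genes most like Nr4a2; a few genes this would name are not reported here. Rara, Rarb, Rarg, Atn1, Npas2, Cry2, Per2, Bhlhe40, Dbp, Nr1d1, Pitx3 and Slc18a2 were named after their values had been seen. Members and lists were chosen with earlier results of these data known.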

Additional observations from a re-analysis of the deposited data

How the results depend on the processing

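With peaks at or above the upper quartile score only, 4 of the 9 receptor genes and 10 of the 40 other nuclear receptors kept a peak, instead of 8 and 28. The share of protein-coding genes was then 19.2% instead of 55.4%. With peaks at or above the median score, 16 of the 26 linked peaks remained, at all 8 genes. Joining peaks of 1 name at gaps of 5000 bp or less (for this count, chosen after seeing the data) lowered the members with 3 or more peaks from 7 to 3, by construction. The background share of 5.62% was 10.1% among genes with at least 1 peak. It was 10.7% among those with flanking peaks of other names at least 51.4 kb apart. That distance kept 10452 of the 12088 genes with flanking peaks on both sides, so it could alter the share only little. Sparser surroundings were not tested. The flanking distance was also chosen after seeing the data. The longer GC box was found in windows of 3 genes instead of 6. The total of 26 peaks stayed within 1.5 times when peaks were joined at 1000 bp (22) or 5000 bp (18), or when neighbours of another name within 50 kb were added (38). By gene it moved further for several of the 8: for 2 when joined at 5000 bp (Nr2e1 from 4 to 2, Nr4a2 from 5 to 3), for 3 at the median score (Nr2f1 from 3 to 1, Nr4a1 from 4 to 2, Nr4a2 from 5 to 3) and for 4 with neighbours (Nr2f1 to 6, Nr2f2 to 5, Nr2f6 from 1 to 5, Nr4a1 to 7). Leaving out a library, another overlap for shared peaks and a stricter fold over input were not run, because the list holds no library's own values. No paired analysis was possible because the shared list gives 1 score per peak and no value per library, and the single input has no partner. Since depth is unknown, an absent peak may be one below the authors' threshold.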

Other observations

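The names Ror1 and Ror2 belong to receptor tyrosine kinases of Wnt signalling and not to nuclear receptors, although RefSeq lists ROR1 and ROR2 among the synonyms of Rora. Ror1 had peaks of 367.04 and 319.71 on chromosome 4, and Ror2 a peak of 491.45 on chromosome 13. Matching by synonym without regard to case, a setting chosen after seeing the data, would have raised the members' peaks from 26 to 29 by adding these 3, and the highest score credited to Rora from 313.02 to 491.45.

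The distance without a listed peak beyond Nr2f1, 1608 kb, is of the same order as the 1806 kb around Rorb, although Nr2f1 itself had 3 linked peaks and 4 more beside it named A830082K12Rik.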
